A study of Mus musculus with 9 samples.

Results

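The tetraspanins Cd9, Cd63, Cd81, Cd82, Cd151, Cd53 and Cd37 were followed in sorted microglia, macrophages that live in brain tissue, across 3 TREM2 genotypes. These 7 genes were taken by name, out of 19938 genes that had a probe set annotated to 1 gene symbol. Each was represented by a single probe set, so no choice between probe sets arose. All 7 lay above the filter on low values and were among the 10795 genes tested.

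CD45+ CD11b+ cells were sorted from brains of 9 mice aged 8.5 months, and RNA from each mouse was hybridised to 1 Affymetrix Gene ST array. The groups were 3 genotypes of 3 mice each. R47H mice expressed human TREM2 with the R47H substitution, known as a genetic risk factor for Alzheimer's disease. CV mice carried human TREM2 in its common form (common variant), and KO mice carried no human TREM2. Every mouse of the 3 groups carried 5XFAD, transgenes that drive amyloid deposition, and lacked mouse TREM2, so the KO group shares its deletion with the other groups. The construct and promoter of the human transgenes, and the number of founder lines, are not stated in the labels. Mouse 1 was female in every genotype, and mice 2 and 3 were male. All values below are log2 expression values as deposited, and differences are on the log2 scale.

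Tetraspanins are small proteins that cross the membrane 4 times and gather integrins, immunoglobulin-family partners and proteases into membrane microdomains. Cd9 and Cd81 are close relatives that share the partners Igsf8 and Ptgfrn. Cd63 resides in late endosomes and lysosomes and is a standard marker of exosomes. Cd151 and Cd82 associate with integrins, and Cd53 and Cd37 are found mainly on leukocytes. Cd9 and Cd63 are counted among the genes that disease-associated microglia, the state taken up around amyloid plaques, express at raised levels.

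The arrays resembled microglia. Of 9 microglial markers 8 were measured, among them Cx3cr1, P2ry12, Tmem119 and Csf1r, and their mean lay between 11.32 and 11.58 on all 9 arrays. The mouse Trem2 probe set lay at 7.26 to 7.31 in R47H, 7.05 to 7.21 in CV and 7.10 to 7.19 in KO mice. It is not known here which part of the gene it covers, so it checks no genotype label. All 9 arrays matched their sex label. Neutrophil markers varied widely between arrays. The mean of all 13 lay at 5.93 to 6.88 in R47H, 7.82 to 8.70 in CV and 5.35 to 8.64 in KO mice, and Cxcr2, Ly6g, Elane and Mpo were below the filter. KO mouse 3 was unlike KO mice 1 and 2 in this respect, with a score (mean deviation of the 9 tested markers from their average over arrays) of 1.89 against -2.31 in KO mouse 1 and -1.74 in KO mouse 2. Oligodendrocyte markers were highest in R47H mice, where the mean of the 8 measured lay at 7.11 to 7.43, against 5.82 to 6.15 in CV and 5.84 to 6.60 in KO mice. Monocyte markers averaged 5.91 to 6.18 in R47H, 6.71 to 7.27 in CV and 5.84 to 7.07 in KO mice, and astrocyte markers reached 6.34 in R47H, 5.45 in CV and 5.77 in KO mice. Border macrophage markers lay at 7.87 to 8.18 in R47H, 7.52 to 7.85 in CV and 7.66 to 7.83 in KO mice. Over the 9 arrays endothelial markers lay at 4.91 to 5.05 and B cell markers at 4.94 to 5.30. T and NK cell markers lay at 4.06 to 4.27 and neuron markers at 4.10 to 4.44. In RNA from a sorted population, fewer cells of a type and less RNA per cell cannot be told apart.

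No member of the 7 passed the test in any comparison of genotypes. The test was limma with a term for sex and Benjamini-Hochberg adjustment over all 10795 genes, at an adjusted p under 0.05. In CV minus KO 0 of 7 were called, where 1.21% of all tested genes were. In R47H minus KO 0 of 7 were called, against a background of 0.0834%, and in R47H minus CV 0 of 7, against 0.797%. The F-test of any genotype difference also called 0 of 7, against 1.32% of all genes. Against backgrounds this low, a count of 0 among 7 genes is not a result about the members. At an unadjusted p under 0.05, 1 member passed in CV minus KO (Cd9, background 13.2%), 0 in R47H minus KO (5.68%), 1 in R47H minus CV (Cd37, 12.4%) and 1 in the F-test (Cd9, 12%).

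The differences were all smaller than a doubling, and their precision varied between members. Standard errors (SE) ran from 0.06 to 0.13. The 95% confidence intervals of the 7 differences lay within -0.59 and 0.44 for CV minus KO, within -0.37 and 0.29 for R47H minus KO, and within -0.34 and 0.51 for R47H minus CV. A doubling, which is 1 on the log2 scale, was outside every one of these intervals. The median member differed by -0.08 in CV minus KO, 0.03 in R47H minus KO and 0.09 in R47H minus CV, beside medians over all tested genes of -0.02, -0.0011 and 0.01. In absolute size the largest member difference was 0.29, 0.10 and 0.21 in these comparisons. The median absolute difference over all tested genes was 0.09, 0.07 and 0.09.

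**Figure D1:**
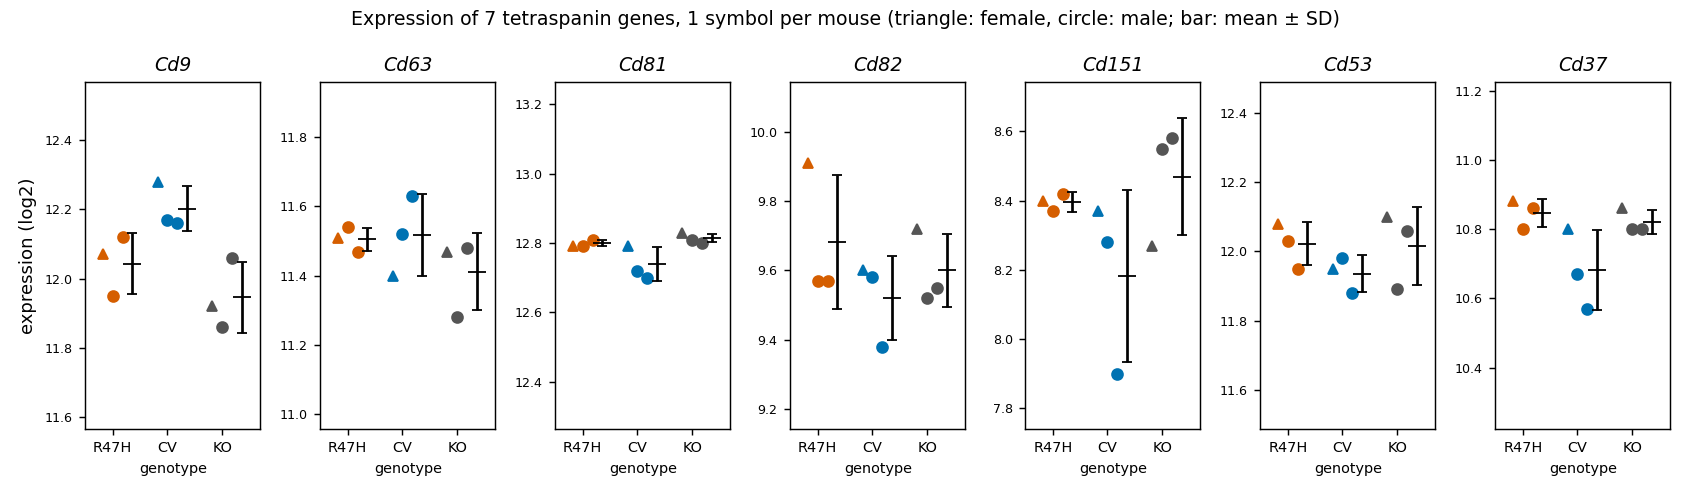
Log2 expression of each tetraspanin (vertical axis, each panel spanning 1 log2 unit around its own centre) in R47H, CV and KO mice, with triangles for females, circles for males and bars for the mean ± SD of 3 mice. Cd9 is highest in the 3 CV mice, at 12.16 to 12.28, and Cd81 varies least, from 12.70 to 12.83 over the 9 mice.

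Cd9 (probe set 10548030) stood highest in mice with the common variant. It read 12.28, 12.17 and 12.16 in CV mice 1, 2 and 3, against 11.92, 11.86 and 12.06 in the KO mice. The 3 CV values all lay above the 3 KO values. CV mice averaged 12.20 ± 0.06 and KO mice 11.95 ± 0.10 (SD, n = 3 each), a difference of 0.26 ± 0.08 (SE), or 1.19-fold with a 95% interval of 1.05 to 1.36. The limma adjusted p was 0.224, so this did not pass the test over all genes, and 5.44% of all tested genes had a p at least as small. In R47H mice Cd9 read 12.07, 11.95 and 12.12, a range that overlapped the KO range and ended just below the lowest CV mouse. R47H minus KO was 0.10 ± 0.08 (limma adjusted p = 0.950), and leaving out 1 mouse moved it between 0.05 without R47H mouse 3 and 0.17 without KO mouse 3. R47H minus CV was -0.16 ± 0.08 (limma adjusted p = 0.485). With the oligodendrocyte score as a covariate R47H minus KO was 0.29 ± 0.19 and R47H minus CV turned to 0.08 ± 0.24 (limma adjusted p = 0.990 and 1.00).

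KO mouse 3 had both the highest neutrophil score and the highest Cd9 value of the KO mice. Without it, the CV minus KO difference of Cd9 was 0.32 ± 0.08 (limma adjusted p = 0.121). With the neutrophil score as a covariate it was 0.11 ± 0.10 (limma adjusted p = 0.956), and R47H minus CV was then -0.01 ± 0.10 (adjusted p = 0.993). Across the 9 arrays Cd9 and the neutrophil score had a Pearson r of 0.73. Among R47H mice, mouse 3 likewise had the highest score and the highest Cd9 value. Among CV mice the order differed. CV mouse 1 had the lowest score of its group (0.897, against 1.965 and 1.7) and the highest Cd9 value (12.28). The score also separates CV from most KO and R47H mice, so genotype and this score overlap in the fit.

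**Figure D2:**
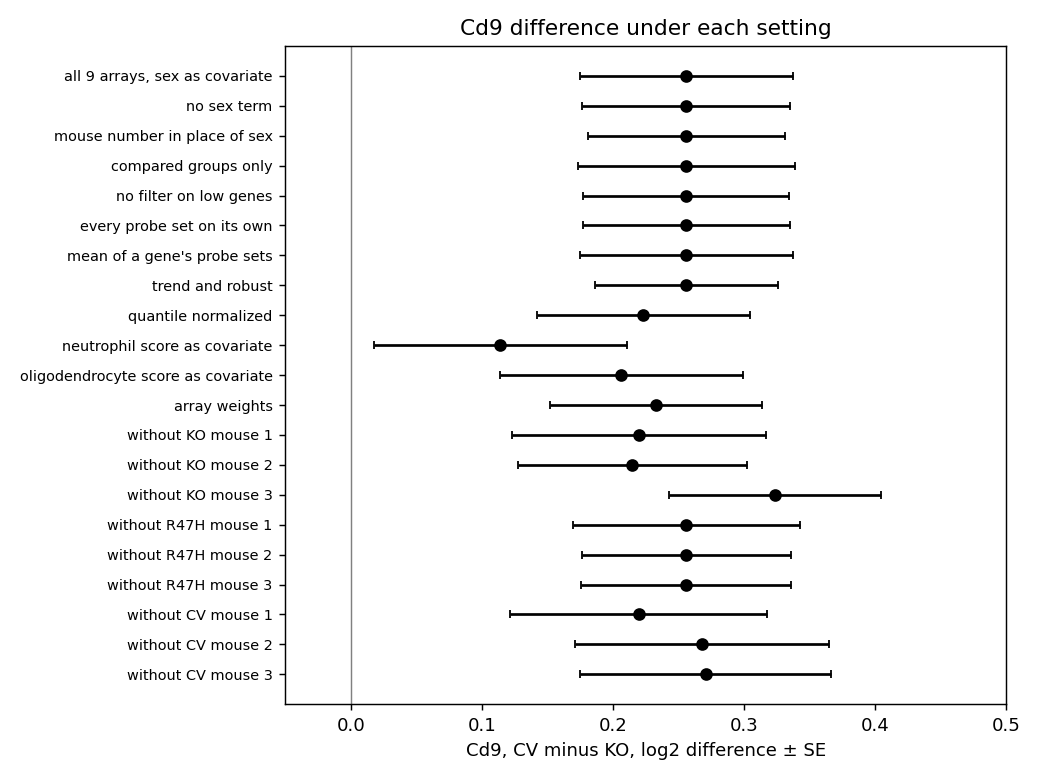
The Cd9 difference between CV and KO mice (horizontal axis, log2 difference ± SE) under each setting of the model, including the removal of each mouse in turn. It stayed positive in all 21 settings, between 0.11 with the neutrophil score as a covariate and 0.32 without KO mouse 3, and its adjusted p was under 0.05 in none.

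Cd81 (10559261), the relative of Cd9 that also joins the B cell coreceptor, had the steadiest values of the 7. R47H mice read 12.79, 12.79 and 12.81 and CV mice 12.79, 12.72 and 12.70, against 12.83, 12.81 and 12.80 in KO mice. CV values lay below all KO values and below all R47H values, though CV mouse 1 did so by less than 0.01 relative to the nearest R47H mouse. The differences were -0.08 ± 0.06 for CV minus KO and 0.06 ± 0.06 for R47H minus CV, each about the size of its error (limma adjusted p = 0.654 and 0.750). R47H minus KO was -0.02 ± 0.06, with a 95% interval of -0.15 to 0.12. Groups that did not overlap were found for Cd9 and Cd81 in CV minus KO, 2 of 7 members against 14% of all tested genes. The same 2 were found in R47H minus CV (background 14.9%) and 0 in R47H minus KO (background 7.11%).

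Cd63 (10367436), the late endosomal member, did not separate the genotypes. R47H mice read 11.51, 11.54 and 11.47 and CV mice 11.40, 11.52 and 11.63, against 11.47, 11.28 and 11.48 in KO mice. All 3 groups overlapped, and KO mouse 2 was the lowest of the 9. The CV minus KO difference was 0.11 ± 0.09 (95% interval -0.09 to 0.30, limma adjusted p = 0.662), and leaving out 1 mouse moved it between 0.03 without KO mouse 2 and 0.18 without CV mouse 1. R47H minus KO was 0.09 ± 0.09 (adjusted p = 0.950), and became 0.02 with KO mouse 2 left out and 0.15 with KO mouse 1 left out. R47H minus CV was -0.01 ± 0.09 (95% interval -0.21 to 0.19, adjusted p = 0.973).

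Cd151 (10558948), a partner of laminin-binding integrins, had the widest spread. It read 8.40, 8.37 and 8.42 in R47H mice and 8.37, 8.28 and 7.90 in CV mice, against 8.27, 8.55 and 8.58 in KO mice. CV mouse 3 was far below the other CV mice, and KO mouse 1 lay within the CV range. The CV minus KO difference of -0.29 ± 0.13 had a 95% interval of -0.59 to 0.01 (limma adjusted p = 0.404). It was -0.13 without CV mouse 3 and -0.43 without KO mouse 1. R47H minus CV was 0.21 ± 0.13 (adjusted p = 0.572), and 0.35 without CV mouse 1 or 0.06 without CV mouse 3. R47H minus KO was -0.07 ± 0.13 (adjusted p = 0.975), and leaving out a KO mouse gave -0.22 (mouse 1), -0.03 (mouse 2) or -0.01 (mouse 3).

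Cd82 (10485213), known as a suppressor of metastasis, was high in the female R47H mouse. It read 9.91, 9.57 and 9.57 in R47H mice and 9.60, 9.58 and 9.38 in CV mice, against 9.72, 9.52 and 9.55 in KO mice. The 3 groups overlapped, and R47H minus CV was 0.16 ± 0.08 (limma adjusted p = 0.457), and 0.10 without R47H mouse 1. Cd82 had an r of 0.65 with the oligodendrocyte score, as did Cd37. With that score as a covariate R47H minus CV of Cd82 was 0.010 and R47H minus KO was -0.039 ± 0.198. The score was higher in all 3 R47H mice than in any other mouse, so genotype and score overlap in the fit. Without the covariate R47H minus KO was 0.08 ± 0.08 (adjusted p = 0.955) and 0.02 without R47H mouse 1. CV minus KO was -0.08 ± 0.08 (adjusted p = 0.718), and was -0.03 without CV mouse 1, -0.15 without CV mouse 2 and -0.04 without CV mouse 3. In each genotype the female had the highest Cd82 value. Female minus male was 0.21 ± 0.07 (limma adjusted p = 0.329), and no member was called for sex, where 0.0648% of all genes were. Cd82 was the 1 member at an unadjusted p under 0.05 for sex (background 11%).

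The leukocyte tetraspanins Cd53 and Cd37 had lower means in CV mice than in R47H and KO mice, and neither passed the test over all genes. Lower means in CV mice were not particular to this pair, since Cd81, Cd82 and Cd151 had them too. In CV minus KO 5 of the 7 members were negative and 2 positive, where 45.0% of all tested genes were positive. In R47H minus CV 5 members were positive and 2 negative, where 53.4% of all tested genes were positive. Cd53 (10501063) read 12.08, 12.03 and 11.95 in R47H mice and 11.95, 11.98 and 11.88 in CV mice, against 12.10, 11.89 and 12.06 in KO mice. Its groups overlapped in every comparison. The CV minus KO difference was -0.08 ± 0.07, R47H minus CV 0.09 ± 0.07 and R47H minus KO 0.01 ± 0.07 (limma adjusted p = 0.705, 0.691 and 0.999). CV minus KO moved to -0.13 when KO mouse 2 was left out and to -0.04 when KO mouse 3 was, and R47H minus CV was 0.06 without CV mouse 1.

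Cd37 (10563178) read 10.88, 10.80 and 10.86 in R47H mice and 10.80, 10.67 and 10.57 in CV mice, against 10.86, 10.80 and 10.80 in KO mice. CV mice 2 and 3 were the lowest of the 9, while CV mouse 1 had the same value as R47H mouse 2 and KO mice 2 and 3 to every deposited digit. Such repeats came with the deposited values: 52.5% of tested genes had at least 1, and among the members only Cd37 and Cd151 did. For Cd151 the repeat was between R47H mouse 2 and CV mouse 1. R47H minus CV was 0.17 ± 0.07, or 1.12-fold (95% interval 1.01 to 1.25, limma adjusted p = 0.370). CV minus KO was -0.14 ± 0.07 (95% interval -0.29 to 0.01, adjusted p = 0.425), and R47H minus KO was 0.03 ± 0.07 (adjusted p = 0.986). Without CV mouse 3, R47H minus CV was 0.12 and CV minus KO was -0.10. The unadjusted p of R47H minus CV was not under 0.05 in 8 of 20 alternatives, among them the replicate block, no sex term, either marker score and the removal of mouse 2 or mouse 3 from either genotype. The microglial markers were also lower in CV mice by value. Their mean lay at 11.44 to 11.54 in R47H, 11.32 to 11.37 in CV and 11.49 to 11.58 in KO mice. In CV minus KO 8 of 8 were negative, where 45.0% of all tested genes were positive. Of these markers 0 were called by limma (all tested genes 1.21%) and 5 had an unadjusted p under 0.05 (all tested genes 13.2%). A link between these markers and Cd37 was not tested. Cd37 and Cd81 each had an r of -0.68 with the neutrophil score.

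**Figure D3:**
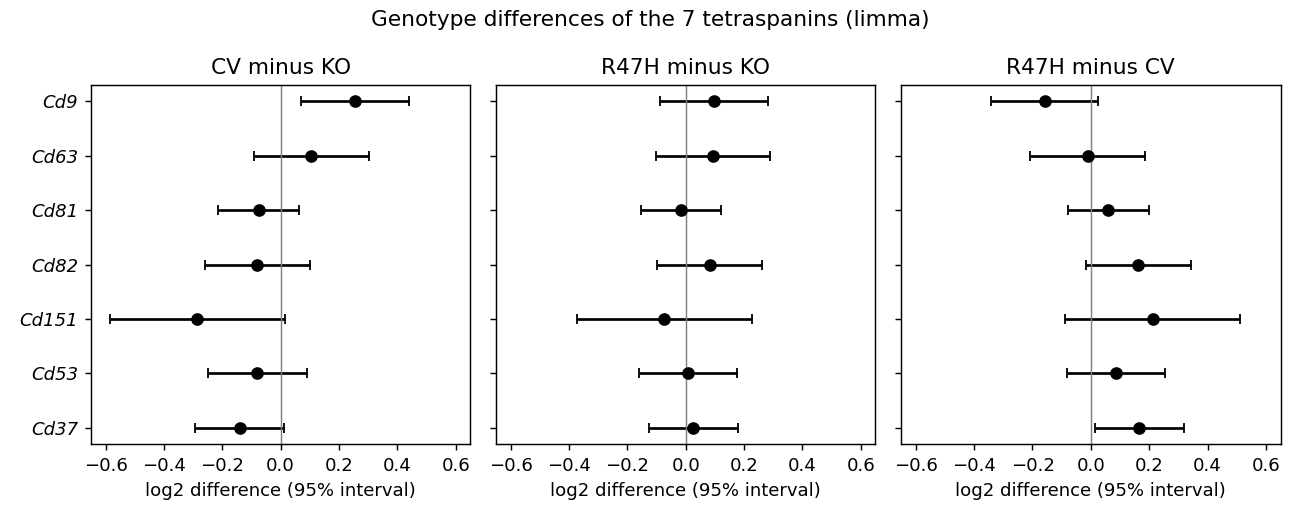
Differences between genotypes for the 7 tetraspanins (horizontal axis, log2 difference with its 95% interval from limma), for CV minus KO, R47H minus KO and R47H minus CV. The intervals of Cd9 in CV minus KO (0.07 to 0.44) and of Cd37 in R47H minus CV (0.01 to 0.32) exclude 0 before adjustment over all genes, and the other 19 include it. The unadjusted p was not under 0.05 in 4 of 20 alternatives for Cd9 and in 8 of 20 for Cd37.

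Over the 9 arrays the members did not move as 1 group. Cd81 and Cd37 were the most alike, with a Pearson r of 0.94, followed by Cd81 with Cd151 (0.76) and Cd82 with Cd53 (0.74). Cd9 correlated with Cd63 at 0.35 and with Cd81 at -0.52, and Cd63 with Cd151 at -0.71. These values share 9 arrays, their normalization and their 3 genotypes, and are given as descriptions. The tested genes closest to Cd9 over the same arrays were Plk2 (r = 0.97), Plp2 (0.96) and Crip1 (0.94). For Cd63 they were Ufl1 (0.98), Upf2 (0.97) and Ttc5 (0.96), for Cd81 Parvg (0.97), Prps2 (0.96) and Canx (0.95), and for Cd82 Mrpl30 (0.97), Ino80c (0.97) and Mrpl48 (0.96). Cd151 was most like Syt3 (0.98), Cby3 (0.97) and Ctnnd2 (0.96), Cd53 like Zfp266 (0.97), Tspyl1 (0.95) and Fbxo8 (0.94), and Cd37 like Slc25a4 (0.97), Rnf187 (0.97) and Cdv3 (0.97). No gene was shared between these sets of 3. They were picked on 9 arrays among the tested genes, with predicted and Riken genes left out. Of the 21 named, only Plk2, Ufl1 and Zfp266 were among the closest 3 whichever array was left out, and 16 were so in 5 or fewer of the 9 cases.

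Of 24 further tetraspanin family genes 23 were measured and 14 were tested. None was called in any comparison. In CV minus KO 11 of the 14 were negative, with a median of -0.13, where 45.0% of all tested genes were positive. Tspan9 had the smallest p. It read 6.86, 6.52 and 6.74 in R47H mice and 6.73, 6.66 and 6.57 in CV mice, against 7.05, 7.36 and 7.03 in KO mice. All 6 mice with human TREM2 lay below all 3 without, in a gene named for its smallest p among the 14. Of all tested genes, 14% had groups that did not overlap in CV minus KO and 7.11% in R47H minus KO. These shares are for each comparison alone and in either direction, not for both at once. CV minus KO was -0.49 ± 0.12 (limma adjusted p = 0.105) and R47H minus KO was -0.44 ± 0.12 (adjusted p = 0.449). These comparisons share the KO mice. Tspan18 stood at -0.35 ± 0.11, Tspan3 at -0.24 ± 0.08 and Rom1 at -0.26 ± 0.10 in CV minus KO (limma adjusted p = 0.229, 0.261 and 0.298). In the same comparison the list had 4 genes lower and 1, Tspan5, higher at an unadjusted p under 0.05, beside 13.2% of all genes in either direction. There was 1 lower in R47H minus KO (all tested genes 5.68%) and 0 in R47H minus CV (all tested genes 12.4%). Tspan5, chosen after its value was seen and known as a regulator of the protease Adam10, stood at 0.26 ± 0.11, and Adam10 itself at -0.22 ± 0.09 (adjusted p = 0.370 and 0.352).

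Among the related lists, partners of tetraspanins held the largest single differences. The lists were chosen with earlier results of these data known, so the calls are not a result about partners as a class. Of 20 listed, 19 were measured and 16 tested. In CV minus KO 3 were called higher and 0 lower, where 1.21% of all tested genes were called in either direction. The list median was 0.05. Cd44, the hyaluronan receptor, rose by 1.52 ± 0.19, to 7.53, 7.23 and 7.22 in CV mice, against 5.96, 5.29 and 6.17 in KO mice (limma adjusted p = 0.00617). Clec7a, the beta-glucan receptor Dectin-1, rose by 1.09 ± 0.15, to 9.81, 9.49 and 9.75 in CV mice, against 9.06, 8.21 and 8.53 in KO mice (adjusted p = 0.0111). The integrin subunit Itga4 rose by 0.88 ± 0.15, to 6.93, 7.04 and 6.77 in CV mice, against 6.18, 5.72 and 6.20 in KO mice (adjusted p = 0.0312). For all 3 genes, named because they were called here, the CV mice lay above every KO mouse (groups without overlap: 14% of all tested genes). With the neutrophil score as a covariate Cd44 stood at 1.02 ± 0.11 (adjusted p = 0.0131), Clec7a at 0.96 ± 0.21 (adjusted p = 0.201) and Itga4 at 0.69 ± 0.20 (adjusted p = 0.394).

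In R47H mice Cd44 read 6.34, 5.91 and 6.06, below every CV mouse. R47H minus CV was -1.22 ± 0.19 (limma adjusted p = 0.0307), the only call in that list for that comparison (all tested genes 0.797%). With the neutrophil score as a covariate it was -0.71 ± 0.11 (adjusted p = 0.137), and with the oligodendrocyte score, which was highest in the 3 R47H mice, it was -0.34 ± 0.47 (adjusted p = 1.00). Itga4 stood at -0.80 ± 0.15 (adjusted p = 0.0592) and Clec7a at -0.62 ± 0.15 (adjusted p = 0.139) in R47H minus CV. Ptgfrn, a direct partner of Cd9 and Cd81, stood at 0.43 ± 0.13 (adjusted p = 0.235). In R47H minus KO 0 of the 16 partners were called (all tested genes 0.0834%). At an unadjusted p under 0.05 there were 2 (all tested genes 5.68%). These were Clec7a at 0.47 ± 0.15 (limma adjusted p = 0.631) and Hbegf at -0.42 ± 0.18 (adjusted p = 0.863). Hbegf is the growth factor that Cd9 binds in its membrane form.

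The machinery of multivesicular bodies and exosomes, vesicles on which Cd9, Cd63 and Cd81 are carried, showed 1 called gene. It was called in CV minus KO, where 1.21% of all tested genes were. Of 19 listed, all were measured and 17 tested, 13 were negative in CV minus KO (of all tested genes 45.0% were positive), and the median was -0.05. In R47H minus CV 15 of the 17 were positive (all tested genes 53.4%), with a median of 0.04. Rab27a, a small GTPase that docks secretory vesicles at the plasma membrane, fell to 8.25, 8.15 and 8.08 in CV mice, against 8.85, 8.65 and 8.73 in KO mice. The difference was -0.58 ± 0.10 (limma adjusted p = 0.0315). R47H mice read 8.46, 8.33 and 8.69. R47H minus KO was -0.25 ± 0.10 (adjusted p = 0.855) and R47H minus CV was 0.34 ± 0.10 (adjusted p = 0.227), so neither was called. Flot1, a lipid raft protein, stood at -0.37 ± 0.10 in CV minus KO (adjusted p = 0.147). The call of Rab27a was lost in 11 of 20 alternatives. Among them were the fit without KO mouse 3 (-0.58 ± 0.12, adjusted p = 0.0724) and that with the neutrophil score (-0.64 ± 0.15, adjusted p = 0.216).

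Membrane proteins of late endosomes and lysosomes, the compartment of Cd63, had no called gene. All 10 listed genes were tested and 0 were called in any comparison (limma). At an unadjusted p under 0.05 they numbered 1 in CV minus KO, 0 in R47H minus KO and 1 in R47H minus CV. The shares of all tested genes were 13.2%, 5.68% and 12.4%. The median differences were -0.04, 0.01 and 0.08. Scarb2, the LIMP-2 receptor that carries glucocerebrosidase, stood at -0.22 ± 0.07 (limma adjusted p = 0.216) in CV minus KO, and Lamp1 stood at -0.10 ± 0.07 (adjusted p = 0.580).

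**Figure D4:**
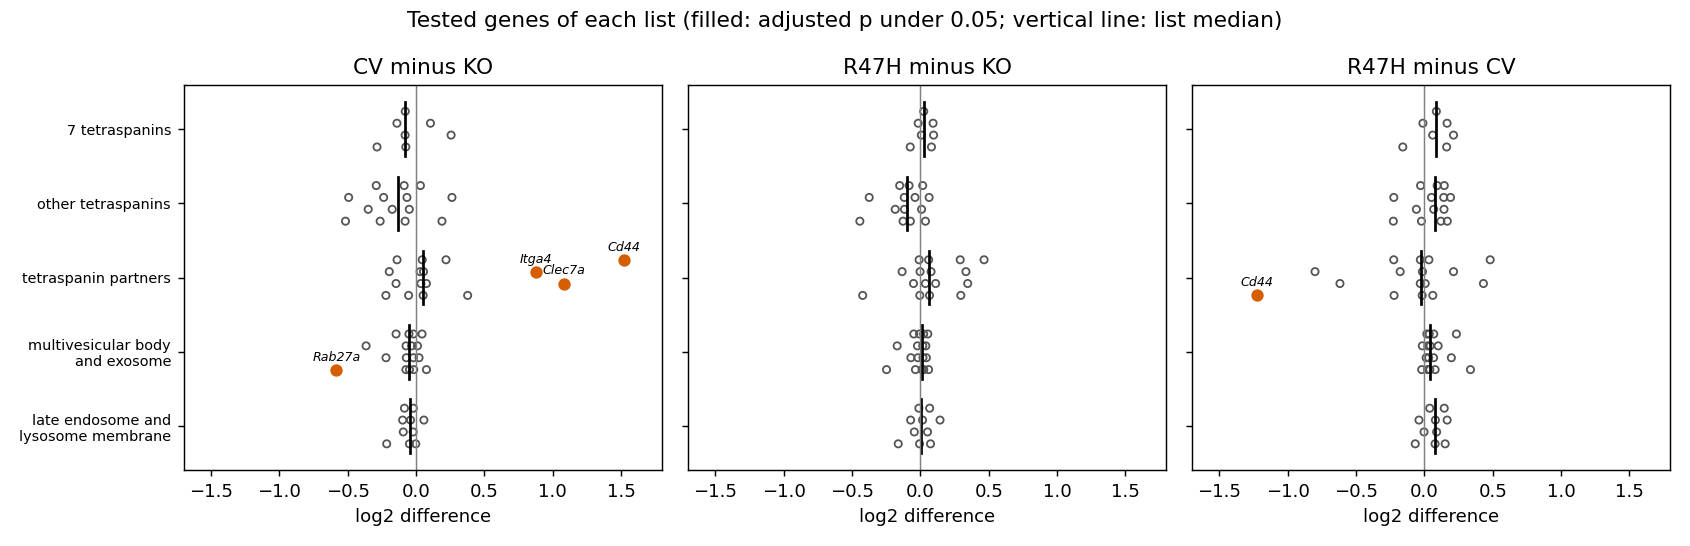
Log2 differences (horizontal axis) of the tested genes in the 7 tetraspanins and the 4 related lists, with filled symbols for genes at a limma adjusted p under 0.05 and a line at each list's median. Cd44, Clec7a, Itga4 and Rab27a are called in CV minus KO, Cd44 in R47H minus CV, and no gene of these lists in R47H minus KO.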

How the data were processed

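The values are those the authors deposited, on a log2 scale, for 35556 probe sets. The log2 scale was read from the range of the values (1.31 to 13.9), and the background correction, normalization and summarisation behind them are not stated. Array medians lay between 5.28 and 5.35, and pairwise correlations at 0.981 to 0.990. The number of arrays limits the precision. Per the labels, biotin-labelled cRNA was made from 2 ng of total RNA.

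Genes were named from the platform annotation (21789 probe sets with 1 symbol, 1621 with several, 12146 with none). Symbols were updated through RefSeq identifiers, which matched 21698. The probe set with the highest mean stood for a gene, and genes with a mean of at least 5.31 (the median of all probe sets) were tested. limma 3.58.1 in R 4.3.3 (lmFit, eBayes) was fitted to all 9 arrays with genotype and sex, leaving 5 residual and 3.73 prior degrees of freedom. Tests were two-sided with Benjamini-Hochberg adjustment over 10795 genes. The code was tested on simulated data. With 3 mice against 3 an exact permutation test cannot go below p = 0.1.

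The members and lists were chosen with earlier results of these data known. Named were the 7 members, the 3 most correlated genes of each (predicted and Riken genes left out), and of each related list all called genes and up to 4 with the smallest p. Markers of 10 cell types were listed. Alternatives were 11 other settings and the removal of each of 9 mice.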

Additional observations from a re-analysis of the deposited data

How the results depend on the processing

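The count of tetraspanins called was 0 in each comparison, and in the F-test and for sex, under every alternative that could be fitted. For the 21 genotype differences of the members, 405 of 420 alternative values kept their direction and 15 turned, all of them uncalled. In R47H minus KO, Cd53 turned to -0.023 with quantile normalization and to -0.018 with array weights, and leaving out 1 mouse at a time moved it between -0.048 and 0.045. Cd37 turned to -0.0068 with quantile normalization and ran from -0.00046 to 0.050 leaving out 1 mouse at a time, and Cd81 ran from -0.027 to 0.0043. With the oligodendrocyte score as a covariate, which is highest in all 3 R47H mice, Cd82 turned to -0.039 and Cd151 to 0.062 in R47H minus KO, and Cd9 to 0.084 and Cd63 to 0.10 in R47H minus CV. Cd63 in R47H minus CV also turned, to 0.012 with quantile normalization and 0.054 with the neutrophil score, and ran from -0.086 to 0.047 leaving out 1 mouse at a time. The causes were not tested.

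Calls in the related lists were less firm. In CV minus KO the partners called numbered 0 with the compared groups alone, 1 with either marker score, and 1 to 3 leaving out 1 mouse at a time. In R47H minus CV they numbered 2 with array weights, 0 with no filter, with every probe set on its own and with either marker score, and 0 to 2 leaving out 1 mouse. Multivesicular body genes called in CV minus KO numbered 0 in 11 of 20 alternatives, among them no filter, every probe set on its own and either marker score, and 0 to 1 leaving out 1 mouse. The Cd44 call in R47H minus CV and that of Itga4 in CV minus KO were each lost in 11 of 20 alternatives. All genes called in CV minus KO numbered 131, between 22 with the neutrophil score and 172 without KO mouse 3. In R47H minus KO they numbered 9 (0 to 15) and in R47H minus CV 86 (0 to 132). The mouse number as a replicate block in place of sex gave 136 calls in CV minus KO, 11 in R47H minus KO and 83 in R47H minus CV, with 0 members, and Cd9 in CV minus KO at 0.26 ± 0.08. The labels tie the number to no shared litter or batch. Of 9 same-numbered pairs of arrays, 7 had deviations from their group means correlated above 0.1 (-0.04 to 0.362). The highest were the pairs of mouse 1 (0.319 to 0.362), the only female of each genotype. Sex was not removed from these deviations, so sex and any other factor shared by the number cannot be told apart here.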
